A study of Mus musculus with 11 samples.

Results

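CpG-dense H3K27me3-only peaks are stretches of chromatin that carried the Polycomb mark H3K27me3 in mouse E14 embryonic stem cells, held many CpGs, and overlapped no peak of H3K4me1 or H3K9me3. They were chosen as unified H3K27me3 peaks on chromosomes 1 to 19, under 20 kb wide, with 30 or more CpGs per kb. Of 18133 unified H3K27me3 peaks, 17634 lay on these chromosomes, 16769 of them were under 20 kb, 13099 of those overlapped neither other mark, and 940 of those reached the CpG density. The peaks were selected on the deposited peak calls and CpG positions, and methylation calls did not enter the choice.

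The data came from CUT&Tag-BS, in which an antibody against a histone mark steers a transposase to the chromatin that carries it, and the cut fragments are then bisulfite converted, so that DNA methylation is read on the marked fragments. All samples were E14 embryonic stem cells, an established line of 129/Ola background grown with serum and leukemia inhibitory factor, with no further treatment or genotype. The bisulfite libraries for H3K27me3 started from 4000, 20000, 100000 or 250000 cells, with 1 library at each number. H3K4me1 and H3K9me3 were profiled from 250000 cells in run 1 and run 2, and each mark had 1 library of 250000 cells without bisulfite. The labels name no separate cultures, so every spread between libraries below may be technical.

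Polycomb repressive complexes deposit H3K27me3, and in embryonic stem cells they do so mainly over CpG islands, the CpG-rich stretches at many gene starts. CpG islands are as a rule free of DNA methylation, and proteins that recognise unmethylated CpGs help to recruit Polycomb there. Many developmental genes carry H3K27me3 together with H3K4 methylation in these cells. The peaks described here are those without an H3K4me1 peak, a mark of enhancers and of the flanks of active or poised promoters.

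Sequences show what the peaks had in common and where they differed. The first group below holds the 250 bases before the start of Epha7 (chr4:28812881-28813130, plus strand), Camk2d (chr3:126596701-126596950, plus strand) and Cacna1c (chr6:119108496-119108745, minus strand), which were almost unmethylated. The second holds those of Samd11 (chr4:156255343-156255592, minus strand), Mael (chr1:166238745-166238994, minus strand), Piwil1 (chr5:128735996-128736245, plus strand) and Ffar1 (chr7:30861471-30861720, minus strand), where methylation reached the start. They were chosen after their values were seen, to show both ends of the range. Sequences are from RefSeq on GRCm38.p6, written 5′ to 3′ in the direction of transcription, with each CpG in capitals.

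Epha7: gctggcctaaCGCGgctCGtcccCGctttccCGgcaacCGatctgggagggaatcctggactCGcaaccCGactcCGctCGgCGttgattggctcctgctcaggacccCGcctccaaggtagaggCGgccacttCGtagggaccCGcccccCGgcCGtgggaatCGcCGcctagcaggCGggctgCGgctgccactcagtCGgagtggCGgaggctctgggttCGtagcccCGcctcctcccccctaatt
Camk2d: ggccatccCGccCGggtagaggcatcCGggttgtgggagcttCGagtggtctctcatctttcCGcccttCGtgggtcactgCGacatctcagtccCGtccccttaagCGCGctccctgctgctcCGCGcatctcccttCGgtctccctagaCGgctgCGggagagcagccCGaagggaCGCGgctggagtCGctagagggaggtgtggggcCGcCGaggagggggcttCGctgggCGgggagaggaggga
Cacna1c: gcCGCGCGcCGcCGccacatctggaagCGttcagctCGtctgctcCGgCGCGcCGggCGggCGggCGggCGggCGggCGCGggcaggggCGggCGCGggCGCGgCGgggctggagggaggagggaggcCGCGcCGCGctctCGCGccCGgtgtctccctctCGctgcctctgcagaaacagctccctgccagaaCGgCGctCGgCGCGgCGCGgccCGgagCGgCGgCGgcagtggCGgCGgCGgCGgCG

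Samd11: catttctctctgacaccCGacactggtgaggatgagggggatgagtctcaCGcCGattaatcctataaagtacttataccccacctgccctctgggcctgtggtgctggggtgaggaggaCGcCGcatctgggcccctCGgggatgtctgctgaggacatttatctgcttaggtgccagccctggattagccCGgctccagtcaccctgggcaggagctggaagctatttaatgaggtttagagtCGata
Mael: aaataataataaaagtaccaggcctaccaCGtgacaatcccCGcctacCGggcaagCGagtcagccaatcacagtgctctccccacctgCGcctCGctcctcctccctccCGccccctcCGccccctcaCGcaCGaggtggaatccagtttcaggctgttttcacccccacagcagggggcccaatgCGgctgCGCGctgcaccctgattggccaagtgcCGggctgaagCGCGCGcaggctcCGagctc
Piwil1: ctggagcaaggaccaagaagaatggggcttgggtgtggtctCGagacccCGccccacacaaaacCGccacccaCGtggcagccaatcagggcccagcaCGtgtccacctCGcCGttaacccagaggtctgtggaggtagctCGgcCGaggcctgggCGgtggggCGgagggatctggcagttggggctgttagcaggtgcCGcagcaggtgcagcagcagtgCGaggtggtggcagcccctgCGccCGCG
Ffar1: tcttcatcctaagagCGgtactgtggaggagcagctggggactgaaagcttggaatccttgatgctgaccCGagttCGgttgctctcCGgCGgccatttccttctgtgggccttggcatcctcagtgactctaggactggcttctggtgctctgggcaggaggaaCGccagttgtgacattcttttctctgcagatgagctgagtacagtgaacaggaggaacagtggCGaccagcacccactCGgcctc

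The Epha7 stretch held 25 CpGs, of which 1 call of 362 was methylated in the 250000-cell library, and Camk2d held 23 CpGs with 0 methylated of 255 calls, which allows up to 1.18%. Cacna1c held 48 CpGs and had 1 methylated call of 420. Epha7 encodes an ephrin receptor that guides axons, Camk2d a calcium-dependent kinase, and Cacna1c the pore of an L-type calcium channel. At Samd11, a regulator of photoreceptor genes, 40 of 84 calls were methylated over 8 CpGs. Mael and Piwil1 act in the piRNA pathway that silences transposons in germ cells. Their stretches held 18 and 16 CpGs, with 16 of 34 and 27 of 57 calls methylated. At the fatty acid receptor gene Ffar1, 22 of 24 calls were methylated over 8 CpGs. The methylated stretches thus included CpG-poor ones (Samd11, Ffar1) and ones of middling density (Mael, Piwil1). In the 100000-cell library Mael had 18 methylated calls of 21 and Piwil1 11 of 16, so their levels are known only coarsely.

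Short motifs were looked for in the same 250 bases on both strands. The E-box CACGTG occurred 1 time before Mael and 2 times before Piwil1, and not before the other 5 genes shown. Among all 758 start entries in the peaks it occurred in 8.18%, against 6.02% of 31396 autosomal starts. The TATA-like TATAAA occurred in 4.62% of the starts in the peaks and 12.4% of all starts, and before Samd11 among those shown. CCAAT occurred in 29.8% and 33.7%. No match of 1 of these 3 motifs can lie inside a match of another. The rule chose dense CpGs, and CACGTG holds a CpG while TATAAA holds only A and T. From 250 bases before to 50 after a start, the median was 26 CpGs and 66.3% G and C in the peaks. Over all autosomal starts it was 7 CpGs and 53.0%. The part of base composition in these shares was not tested, and a match is a description of the sequence only.

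The peaks were short and mostly of moderate density. Their median width was 2036 bp (1001 to 16835), and 162 were exactly 1001 bp wide. The median density was 39.4 CpGs per kb (30.01 to 148), 498 lay between 30 and 40 CpGs per kb, and 140 had 60 or more. The widest lay at an end of Chd7, a chromatin remodeler (chr4:8679940-8696774, 16835 bp), and at the starts of Gm7854 (14211 bp) and Zswim6 (13926 bp). Among the densest were those at the translation factor gene Eif5 (127 CpGs per kb) and at Lrrc8d, which encodes a subunit of an anion channel (124.9 CpGs per kb). Together the peaks held 106390 CpGs. Just inside the density threshold stood peaks at Hivep3, Man1a and Clip4, with 87.0%, 8.50% and 14.7% methylation in the 250000-cell library. Just outside it stood peaks at Rgs19 (30.05%), Gm12111 (56.9%) and an intergenic peak on chromosome 1 (34.1% of 44 calls).

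Sequencing depth set what could be read. The 8 bisulfite libraries held 377316 to 37159887 calls on chromosomes 1 to 19 and X, and the peaks received 9683, 123510, 526265 and 729831 calls in the H3K27me3 libraries from 4000, 20000, 100000 and 250000 cells. At 250000 cells, CpGs of the peaks were read 6.86 times on average, against 1.74 for an average CpG of the same chromosomes. In H3K4me1 run 2 the mean in the peaks was 0.527 calls, against 0.454 for an average CpG and 2.35 in CpG-dense H3K27me3 peaks that overlapped H3K4me1. In H3K9me3 run 2 it was 0.141, against 0.295 for an average CpG. The rule took H3K27me3 peaks clear of peaks of the other marks. The high H3K27me3 value, the low H3K9me3 value and the gap to peaks overlapping H3K4me1 run the way of this choice. The H3K4me1 value stood above that of an average CpG, and the cause was not tested. All these values are given as a description. Of the 940 peaks, 883 overlapped a peak of the library without bisulfite, and 4, 273, 613 and 675 overlapped peaks of the bisulfite libraries in order of cell number.

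Methylation of the peaks was low in every H3K27me3 library. The level, the share of methylated calls among all calls, was 11.9% in the 4000-cell library (95% Wilson interval 11.3 to 12.6), 11.9% in the 20000-cell library (11.7 to 12.1), 12.7% at 100000 cells (12.6 to 12.8) and 13.1% at 250000 cells (13.03 to 13.2). The 2 smaller libraries gave the same value to 3 digits, and the 250000-cell library the highest. Intervals cover counting error only, since calls on 1 fragment and amplified copies are not independent. Calls on H3K4me1 fragments gave 11.3% and 12.2% in runs 1 and 2, and calls on H3K9me3 fragments gave 19.8% and 19.2%. Fragments are named by the antibody of their library, and whether those in these peaks carried its mark was not tested.

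The peaks were less methylated than CpG-poor peaks with H3K27me3 alone, a class of 12159. These had levels of 27.2%, 27.9%, 29.3% and 29.1% in order of cell number. The difference was −15.98 points on average (SD 0.546, n = 4 libraries, all lower), with an exact two-sided sign permutation p of 0.13, the smallest that 4 libraries allow. With the other 2 marks added, the runs of each averaged, it was −19.3 points (6 of 6 lower, exact p = 0.03125, the smallest that 6 allow). Adjusted over the 8 comparisons of this kind made here, these p-values were 0.143 and 0.0357.

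Compared with the 827 CpG-dense H3K27me3 peaks that did overlap H3K4me1, the level differed little. Those peaks had 12.3%, 12.7%, 13.2% and 13.5% in order of cell number. The peaks without H3K4me1 were lower by 0.491 points on average (SD 0.231, n = 4, all lower; exact two-sided sign permutation p = 0.13). Over 6 libraries, with the runs of each mark averaged, the difference was −0.923 points (6 of 6 lower, exact p = 0.03125). H3K9me3 run 1 alone gave 0.182 points, the other way. H3K4me1 peaks set these classes apart, and H3K4me1 is also 1 of the 6 libraries, with −3.14 and −2.62 points in runs 1 and 2. The value over 6 libraries is therefore not independent of the rule. The direction of the difference varied between ranges of density without following density. At 250000 cells the H3K27me3-only peaks were the higher ones at 30 to 35 CpGs per kb (15.5% against 15.3%), 35 to 40 (14.3% against 12.9%) and 50 to 60 (8.02% against 7.21%), and the lower ones at 40 to 50 and at 60 or more. At 60 or more they had 4.63% against 6.93% in that library, but 4.76% against 4.20% at 4000 cells. With the threshold at 25 CpGs per kb the mean difference was 0.317 points, the other way.

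**Figure D1:**
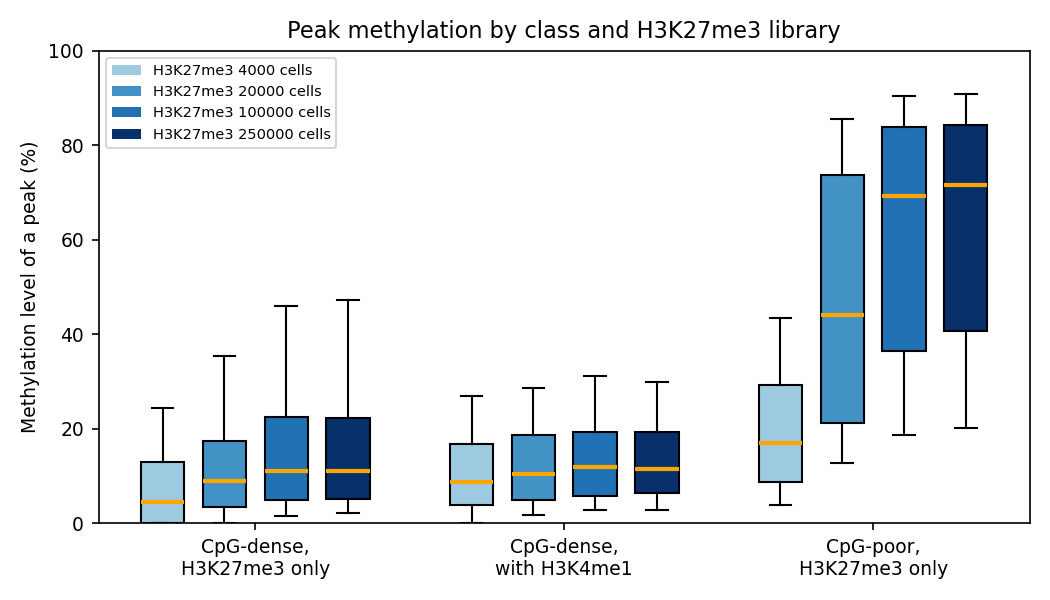
Methylation level of single peaks (percent, vertical axis) in 3 classes of H3K27me3 peaks and 4 libraries; boxes span the quartiles, orange lines are medians and whiskers reach the 10th and 90th percentiles, over peaks with at least 20 calls. In the 250000-cell library the median was 10.99% for the CpG-dense H3K27me3-only peaks, 11.5% for CpG-dense peaks with H3K4me1 and 71.6% for CpG-poor ones.

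Single peaks spread much more widely than their sum. In the 250000-cell library 939 of the 940 peaks had at least 20 calls, with a median of 10.99%, quartiles of 5.17% and 22.2%, and a 90th percentile of 47.2%. For CpG-dense peaks with H3K4me1 the median was 11.5% and the 90th percentile 29.9%. Of the 939, 428 were under 10% and 82 were over 50%. The share over 50% was 8.73% here and 3.02% in the CpG-dense peaks with H3K4me1. In the 100000-cell library the shares were 8.74% and 2.66%, at 20000 cells 5.26% and 1.82%, and at 4000 cells, where 163 peaks had enough calls, 1.23% and 1.28%. The difference was thus present in 3 of 4 libraries (mean 3.79 points, SD 2.82, n = 4, exact two-sided sign permutation p = 0.250). With the other marks it was present in 5 of 6 (exact p = 0.0625), although H3K4me1 run 1 alone gave −0.278 points. H3K4me1 is 1 of the 6 and its peaks set the classes apart, so the 6 are not independent of the rule.

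Most peaks read in another library fell in the same band. Of the 82 over 50% at 250000 cells, 81 had at least 20 calls at 100000 cells, and 72 of these were again over 50%. The same held for 31 of 44 at 20000 cells, 18 of 30 on H3K4me1 run 2 fragments, 5 of 6 on H3K9me3 run 2 fragments and 0 of 1 at 4000 cells. Of the 428 under 10%, 384 were again under 10% at 100000 cells, 340 of 386 at 20000 cells and 70 of 80 at 4000 cells. The 82 high peaks had 58.8%, 63.9% and 64.8% in the libraries from 4000, 20000 and 100000 cells, 56.8% on H3K4me1 run 2 fragments and 68.1% on H3K9me3 run 2 fragments. Across 798 peaks with at least 20 calls at 20000, 100000 and 250000 cells, the correlation with the 250000-cell levels was 0.957 (Pearson) at 100000 cells and 0.890 at 20000. Across 160 peaks with enough calls in all 4 libraries it was 0.610 at 4000 cells. These describe peaks that share sequence and density and carry no test.

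High and low peaks differed in density and position. The 224 peaks up to 5% had a median of 58.7 CpGs per kb and 75.9% of them held a gene start. The 82 peaks over 50% had a median of 33.6 CpGs per kb and 22.0% held a gene start. Between these bands both values fell step by step. Over the peaks at 30 to 35 CpGs per kb the level in the 4 H3K27me3 libraries was 14.0%, 14.7%, 15.5% and 15.5% in order of cell number. At 60 or more it was 4.76%, 3.95%, 4.52% and 4.63%, lower by 10.5 points on average (SD 0.815, n = 4, all the same way; exact two-sided sign permutation p = 0.13). Over 6 libraries the difference was 11.8 points (6 of 6, exact p = 0.03125).

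**Figure D2:**
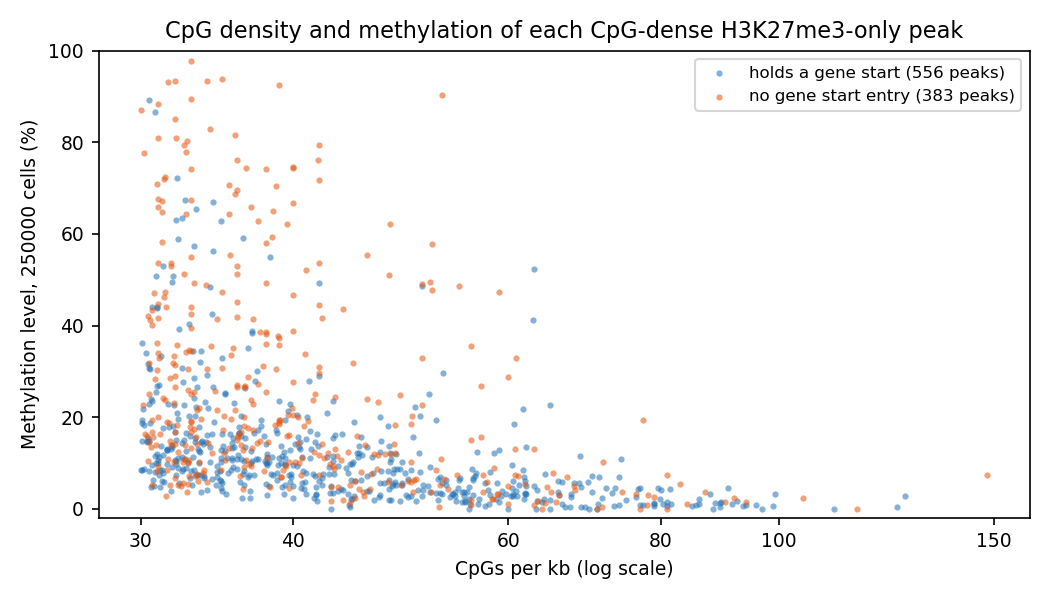
Each point is 1 of the 939 peaks with at least 20 calls: CpGs per kb (log scale, horizontal) and methylation level in the 250000-cell library (percent, vertical), blue where the peak held a gene start and orange where it held no gene start entry. Levels spread over almost the whole range near 30 CpGs per kb and narrow towards 0 at high density, and 64 of the 82 peaks over 50% are orange.

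Most of the peaks lay at genes. A gene start lay in 556 (59.1%), of which 532 held the start of a coding gene, 131 held an end of a gene without a start entry (its first or last base, which the table does not tell apart), 184 lay inside or across a gene and 69 lay outside genes. A gene start lay in 58.4% of the CpG-dense peaks with H3K4me1 and 18.0% of the CpG-poor peaks. At 250000 cells the median level was 8.45% for peaks with a gene start, 10.3% for those with an end of a gene without a start entry, 20.2% for those inside genes and 30.8% for those outside genes. In order of cell number, the summed level of peaks without a gene start was 15.0%, 14.5%, 15.0% and 15.2%, against 10.4%, 10.8%, 11.8% and 12.2% with one. The difference averaged 3.60 points (SD 0.721, n = 4, all the same way; exact two-sided sign permutation p = 0.13), and 5.47 points over 6 libraries (6 of 6, exact p = 0.03125). Peaks at an end of a gene without a start entry count here as without one. Their summed level was 8.87%, 10.6%, 11.3% and 11.6% in order of cell number, below that with a gene start in each H3K27me3 library. On H3K4me1 and H3K9me3 run 2 fragments it was above, at 11.4% against 10.03% and 16.4% against 14.8%. Peaks inside genes had 19.5% and those outside genes 31.2% at 250000 cells.

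The gene starts themselves were almost free of methylation. In windows from 250 bases before to 50 after a start, 758 windows of 664 genes, the level was 1.65%, 1.55%, 1.67% and 1.72% in order of cell number. On H3K4me1 run 2 fragments it was 1.90%, and on H3K9me3 run 2 fragments 3.53%. Of 698 windows with at least 20 calls at 250000 cells, 298 had no methylated call and 7 were over 50%. The 7 were 2 of Clip4 and 1 each of Ffar1, Gm34424, Gm5105, Papss1 and Samd11, with 3 to 11 CpGs against a median of 26. Start windows in the CpG-dense peaks with H3K4me1 had 3.67%, 3.05%, 3.15% and 3.38% in order of cell number, higher in all 4 (mean difference −1.66 points, SD 0.250; exact two-sided sign permutation p = 0.13). Over 6 libraries the difference was −1.51 points (6 of 6 lower, exact p = 0.03125), although H3K9me3 run 2 alone gave 3.53% and 3.54%. H3K4me1, 1 of the 6, also set these classes apart. All 31396 autosomal starts had 5.47% at 250000 cells, with a median of 7 CpGs.

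**Figure D3:**
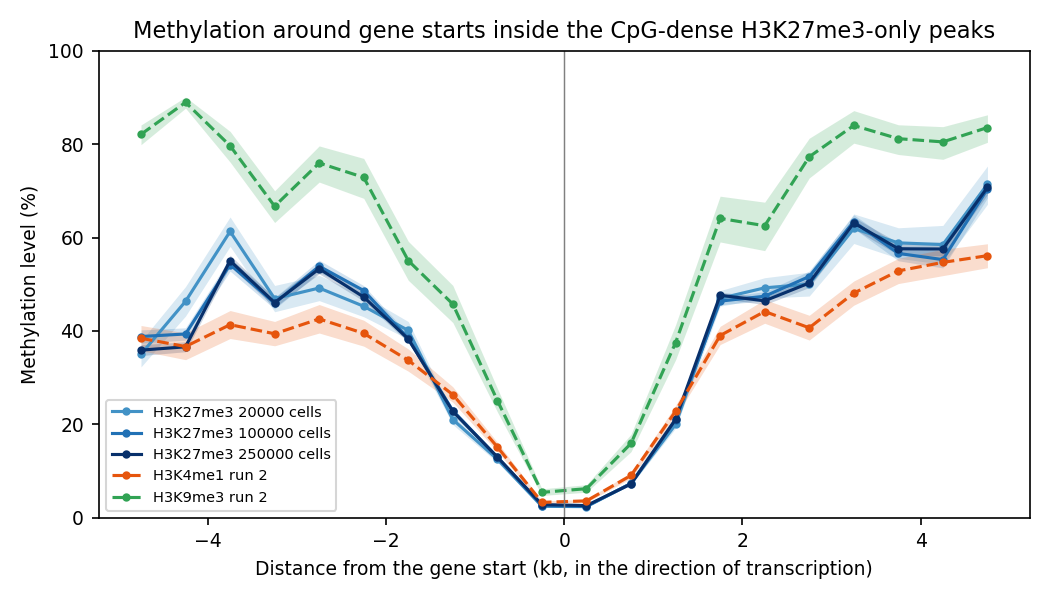
Methylation level (percent) in bins of 500 bp by distance from the gene start (kb), over 689 starts inside the peaks; lines are libraries and bands are 95% Wilson intervals. At 250000 cells the level was 2.84% and 2.62% in the bins beside the start, 13.01% at 500 to 1000 bp upstream and 47.7% at 1500 to 2000 bp downstream.

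Methylation rose steeply on both sides of the start. The 4000-cell library stood apart in places: at 2000 to 2500 bp upstream it had 19.3% of 161 calls (95% Wilson interval 13.9 to 26.0), against 45.3%, 48.7% and 47.3% in the libraries from 20000, 100000 and 250000 cells. At 250000 cells the level went from 2.62% in the first 500 bp of the gene to 7.26% in the next, then 21.1% and 47.7%. CpG density fell along the same path, from 91.6 to 40.6, 19.4 and 12.3 CpGs per kb. Coverage did not peak at the start: a CpG had 5.54 calls in the first 500 bp and 8.81 calls at 1000 to 1500 bp. Fragments of H3K9me3 run 2 had 6.24% in the first 500 bp and 64.1% at 1500 to 2000 bp.

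Seen over whole peaks, the middle was less methylated than the edges. The inner 50% of each peak had 9.66%, 9.27%, 9.73% and 9.94% in order of cell number, and the outer 25% on each side had 20.5%, 21.2%, 24.1% and 25.2%. The difference averaged 13.1 points (SD 2.07, n = 4, all the same way; exact two-sided sign permutation p = 0.13), and 10.7 points over 6 libraries (6 of 6, exact p = 0.03125). In the CpG-dense peaks with H3K4me1 it was smaller in all 4 libraries, by 6.31 points on average (SD 1.60; exact p = 0.13). Within 1 kb outside the peaks the level at 250000 cells was 52.8%, and 75.1% at 1 to 2 kb. The outer parts also held fewer CpGs than the middle (29.8 against 52.7 per kb) and fewer calls per CpG (3.94 against 8.51). The part of density in the difference was not tested.

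**Figure D4:**
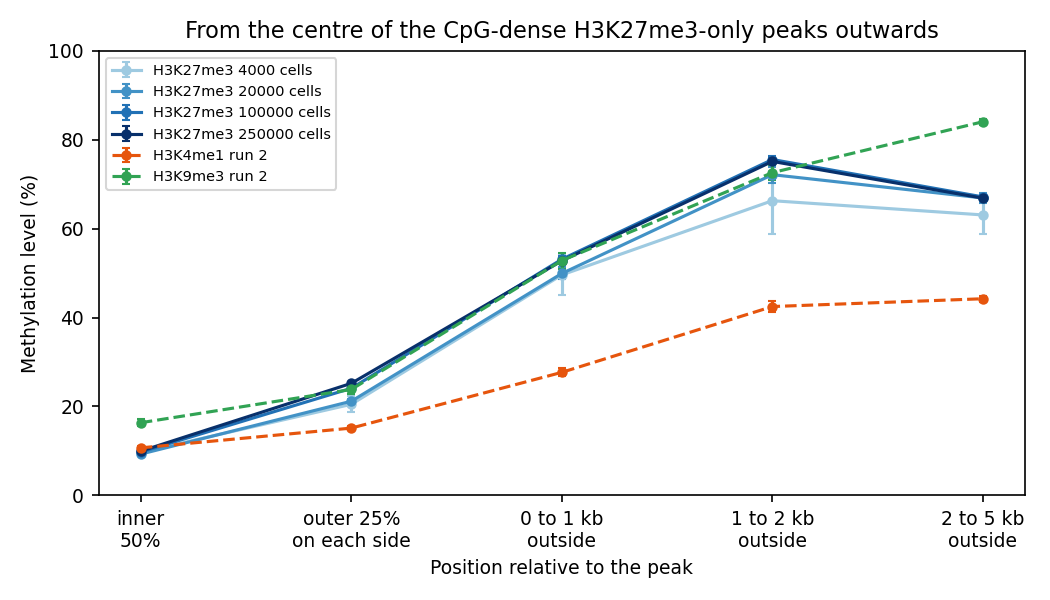
Methylation level (percent) from the inner 50% of each peak through its outer 25% on each side to 3 distances outside them; points are levels per library with 95% Wilson intervals. In all 4 H3K27me3 libraries the level rises from under 10% in the middle to over 60% beyond 1 kb, and of the libraries plotted H3K4me1 run 2 is the lowest outside the peaks (42.5% at 1 to 2 kb).

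Fragments of the other marks were compared with H3K27me3 fragments at CpGs covered in both libraries. The rule left out peaks of both other marks. In run 2 a CpG of these peaks had 0.527 H3K4me1 and 0.141 H3K9me3 calls, against 0.454 and 0.295 for an average CpG. Whether the fragments read here carried the mark of their library was not tested, so the gaps compare libraries. H3K4me1 calls were higher than the 250000-cell H3K27me3 calls by 1.61 points in run 1 (11.2% against 9.56%, 20403 CpGs) and 1.83 points in run 2 (12.02% against 10.2%, 34083 CpGs). H3K9me3 calls were higher by 6.87 points in run 1 (4363 CpGs) and 6.76 points in run 2 (18.8% against 12.1%, 10932 CpGs). In the CpG-poor peaks the run 2 gaps were 11.6 and 26.9 points. Within H3K27me3, gaps like those of H3K4me1 appeared, but none as large as those of H3K9me3. At CpGs shared with the 250000-cell library, the 4000-cell H3K27me3 calls were higher by 1.65 points in the peaks and 11.8 points in CpG-poor peaks. The 20000-cell and 100000-cell calls differed from the 250000-cell calls by 0.453 and −0.242 points in the peaks. Without the restriction to shared CpGs the H3K4me1 gap was −1.32 points, the other way. Runs of a mark were treated as repeat sequencing of 1 library, so these gaps have no biological replicate.

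Per peak, Fisher's exact test with Benjamini-Hochberg adjustment over all unified H3K27me3 peaks compared libraries, not conditions. Each cell number has 1 library, and the test takes calls on 1 fragment and amplified copies as independent, so its p-values cover counting error only and are too small where calls are not independent. Between H3K4me1 run 2 and 250000-cell H3K27me3 calls, 20 of 726 CpG-dense H3K27me3-only peaks passed (14 higher and 6 lower on H3K4me1 fragments), or 2.75%, against 17.6% of all 8032 peaks tested, 12.9% higher and 4.77% lower. Between H3K9me3 run 2 and the same library, 26 of 235 passed, all higher on H3K9me3 fragments, or 11.1% against 30.9% of 2674, with 30.3% higher and 0.636% lower. All peaks tested included those overlapping H3K4me1 or H3K9me3, which the rule took out here. H3K4me1 run 2 had 2.35 calls per CpG in CpG-dense peaks with H3K4me1, against 0.527 in the H3K27me3-only ones. More calls let smaller differences pass, and the part of depth in these shares was not tested. Between 100000 and 250000 cells, 40 of 938 passed (15 higher and 25 lower at 100000 cells), or 4.26%, close to the 3.96% of all 15445 tested, 1.53% higher and 2.43% lower. Between 20000 and 250000 cells, 75 of 798 passed (25 higher and 50 lower at 20000 cells), or 9.40%, against 11.1% of 10085, with 2.71% higher and 8.44% lower.

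The largest differences between 100000 and 250000 cells were at peaks of moderate depth. The peak at the pseudogene Akt2-ps had 47.5% of 158 calls at 100000 cells and 76.1% of 197 at 250000 (adjusted p = 2.0e-05, Fisher's exact test), with 64.7% of 68 at 20000. The peak at Cbfa2t2-ps1 had 20.1% and 47.3% (adjusted p = 0.0024, Fisher's exact test). In the other direction, the peak at Rfk, which encodes riboflavin kinase, had 39.6% and 15.2% (adjusted p = 0.00043), and one inside the potassium channel gene Kcnj14 had 46.9% and 23.8% (adjusted p = 0.0021, both by Fisher's exact test). Peaks at Gm3625 and inside Fry differed by 19.3 and 18.95 points. Pseudogenes share sequence with their parent genes, so which copy a read came from is uncertain there. Of the 40 peaks, 14 differed by at least 10 points.

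The deepest peaks under 5% at 250000 cells are described next, and levels given by gene from here on are those of the whole peak. The peak at the start of Epha7 (chr4:28812353-28818404, 270 CpGs) had 1.61%, 1.56%, 2.27% and 2.19% in order of cell number, the last over 4975 calls. That at Camk2d (chr3:126595657-126599228) had 1.64%, 5.19%, 3.62% and 3.58%. Peaks at an end of genes without a start entry included Rims2, an organiser of synaptic release sites (4.81% of 7583 calls at 250000 cells), Pde3b, a phosphodiesterase (4.37% of 6660), and Gpc6, a glypican (3.66% of 3908). The peaks at the starts of the phosphatase gene Phlpp1, the Golgi mannosidase gene Man2a1 and the G-protein gene Gnaq had 4.53%, 4.53% and 4.97% at 250000 cells. At 100000 cells they had 4.95%, 4.69% and 7.24%, and at 20000 cells 3.21%, 3.40% and 7.57%. Man2a1 had 12.1% of 99 and 10.4% of 202 calls in H3K4me1 runs 1 and 2, and 0 of 48 in H3K9me3 run 2. The peak at Dennd5b, a Rab activator, had 1.67% of 1561 calls at 250000 cells and 1.74% at 100000, but 15.7% of 300 calls at 20000 cells. All of these overlapped peaks of the library without bisulfite and of at least 3 bisulfite libraries.

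Developmental regulators were rare among the peaks. Of 109 homeobox genes with a start entry, 1 had its start in them, the chromatin organiser Satb1 (2.53% of 1108 calls at 250000 cells), while 81 lay in H3K27me3 peaks of 20 kb or wider. Of 176 other developmental transcription factors 2 did: Gli3, an effector of Hedgehog signalling (9.69% of 4118 calls), and the nuclear receptor gene Rora (4.56% of 1906 calls at 250000 cells, 7.91% of 1252 at 100000). The share over all genes with a start entry was 2.58% (664 of 25748). Under the same width limit, the CpG-dense peaks with H3K4me1 held the starts of 7 homeobox genes and 12 of the other factors, among 579 genes. The rule takes out wide domains and peaks overlapping H3K4me1, so these counts describe the choice. Of 14 housekeeping genes 0 had their start in the H3K27me3-only peaks.

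Of 123 signalling genes 4 had their start in the peaks, all receptors. In order of cell number the peak at Erbb4, the neuregulin receptor gene, had 2 methylated of 50 calls and then 11.3%, 9.32% and 11.2%. At 250000 cells the bone morphogenetic protein receptor gene Bmpr2 had 6.25%, the activin receptor gene Acvr2a 16.5% and the stem cell factor receptor gene Kit 10.4% of 402 calls. The peak at Acvr2a had 10.6% at 100000 cells and 16.5% at 250000 (adjusted p = 0.036, Fisher's exact test over calls).

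Of 284 genes of channels and neurotransmission 8 did, with peak levels from 3.61% to 21.7% at 250000 cells. The peak at Cacna1c (chr6:119103697-119114934) had 17.9%, 19.4%, 18.7% and 19.4% in order of cell number, although the 250 bases before its start were almost unmethylated. The peak at Kcnmb4, a potassium channel subunit gene, had 12.5%, 12.8%, 14.3% and 14.6%, the last becoming 26.9% when every CpG counted equally. Kcnd2, an A-type potassium channel gene, had 18.7% at 250000 cells and 15.0% at 100000 (adjusted p = 0.0043, Fisher's exact test). Ryr2, the cardiac ryanodine receptor gene, had 11.1%, but 30.2% when every CpG counted equally.

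Of 190 genes of adhesion and guidance 8 did, from 2.19% at Epha7 to 63.4% of 350 calls at Slitrk1, a synaptic adhesion gene. The integrin gene Itgav had 13.5% at 250000 cells and 9.12% at 100000 (adjusted p = 0.0077, Fisher's exact test). Adgra3, an adhesion receptor gene, had 3.70%, and Nectin3 11.9%. Of 47 germline genes 3 did. The peak at Mael had 43.3% of 30 calls at 20000 cells, 57.0% of 128 at 100000 and 52.4% of 164 at 250000. That at Piwil1 had 53.3% of 30 and 58.9% of 141 at the 2 larger cell numbers. Terb1, which attaches telomeres in meiosis, had 10.9% and 6.40%, so it stood with the low peaks. Of 44 imprinted genes 2 did: Zdbf2 had 1.07% and 0.860% at 100000 and 250000 cells, and Inpp5f 3.30% and 3.53%. Both were near the bottom of the range in these libraries. At 20000 cells Zdbf2 had 7.27% of 55 calls and Inpp5f 0 of 37. On H3K4me1 fragments of runs 1 and 2 Zdbf2 had 6.98% of 43 and 6.84% of 117 calls, and Inpp5f 2.70% of 37 and 4.40% of 91.

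**Figure D5:**
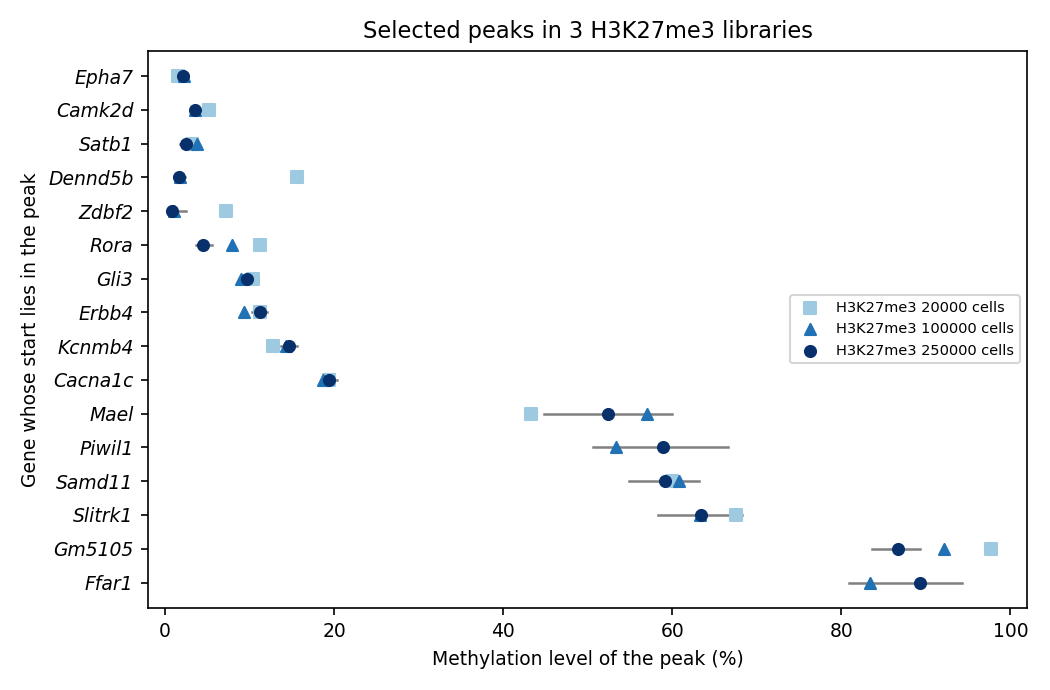
Methylation level (percent) of 16 peaks named by the gene whose start they hold, in the H3K27me3 libraries from 20000, 100000 and 250000 cells where at least 20 calls were made; grey lines are 95% Wilson intervals at 250000 cells. The 10 upper genes stay under 20% in all 3 libraries, and the 6 lower ones, with Mael and Piwil1 among them, lie over 40%.

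The highest peaks were mostly short, near the density threshold and inside genes. The 10 highest with enough calls had 82.9% to 93.4% at 250000 cells. They included peaks inside C1qtnf2, C5ar1, a complement receptor gene, Tent5c, which encodes a poly(A) polymerase, Tmem132c, Limch1 and the cap-binding protein gene Eif4e3. The peak inside Tent5c had 93.3% of 89 calls at 250000 cells but 75.3% of 73 at 100000 (adjusted p = 0.046, Fisher's exact test). One inside Hivep3 (chr4:120094675-120098573) was wider and deeper: it had 80.4%, 86.7% and 87.0% at 20000, 100000 and 250000 cells, the last over 301 calls. The peak at the start of Gm5105 had 97.6%, 92.1% and 86.7%, the last over 565 calls. The peak at the start of Ffar1 (chr7:30860690-30861969) had 83.3% of 36 calls and 89.3% of 84 at the 2 larger cell numbers, and 78.9% of 38 calls on H3K4me1 run 2 fragments.

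How a peak was called moved with its level. The 206 peaks found only in the list without bisulfite had 23.4% at 250000 cells, the 57 found only in bisulfite lists had 15.7%, and the 677 found in both had 12.7%. The 162 peaks of 1001 bp had 20.1%, and the 122 over 5000 bp had 12.9%. These values rest on 18371 calls in the shortest peaks and 385016 in the widest. The part of the calling in the level was not tested.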

How the data were processed

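The submitters' processing notes name cutadapt 1.12, Bowtie2 2.3.0, Bismark 0.23.0, HOMER 4.10.3, bedtools 2.29.2 and mm10, with no role stated for each; treatment of duplicate reads is not given in the sources used here. The deposited table holds, per CpG (21908008 in all) and bisulfite library, whole-number counts of methylated calls and of all calls. Every one of 407620 CpGs in the RefSeq GRCm38.p6 start windows fell on a row of it, so positions are taken as mm10. The deposited peak lists hold positions without scores. The unified H3K27me3 list equalled the merge of the 5 H3K27me3 lists. Calls were summed per region with Python 3 (numpy, pandas, scipy), and levels are methylated calls over all calls in percent, with 95% Wilson intervals. Single peaks were compared where they had at least 20 calls. Differences between peak classes were taken within each library and tested by an exact two-sided permutation of signs. Fisher's exact test per peak ran on all unified H3K27me3 peaks of chromosomes 1 to 19 and X, with Benjamini-Hochberg adjustment at 0.05, after a check on simulated calls. H3K4me1 and H3K9me3 runs were averaged as 1 library per mark.

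Gene starts came from RefSeq entries, which cover 79.6% of autosomal coding genes; other genes were placed by either end. Peaks overlap when they share 1 bp. The members and gene lists were chosen with earlier results of these data known, and the list patterns were tightened after a first look. Named peaks are the 10 highest and, by calls, the 10 deepest under 5%, up to 4 per gene list by calls, the 6 largest Fisher differences, those beside the density threshold, and the densest and widest. One peak that this rule names is not reported here. Samd11, Slitrk1, Terb1 and the genes with methylated start windows were named after their values were seen. Other density thresholds, call minimums, ways to average and left-out libraries were tried. All count columns were used (0 were left out).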

Additional observations from a re-analysis of the deposited data

Results flagged for a closer look

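Peaks on chromosome X that met the rest of the rule entered no comparison, and their methylation calls stood above the limit that a count of 0 allows. The 47 such peaks had 15.5%, 17.3%, 18.1% and 18.7% methylation in the H3K27me3 libraries from 4000, 20000, 100000 and 250000 cells, the last over 23321 calls (95% Wilson interval 18.2 to 19.2). On H3K4me1 fragments they had 15.6% and 15.7% in runs 1 and 2. On H3K9me3 fragments they had 37.0% of 189 calls and 40.8% of 625. The autosomal peaks had 13.1% at 250000 cells, and 5 of the 47 were over 50%.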

How the results depend on the processing

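The level of the CpG-dense H3K27me3-only peaks at 250000 cells, 13.1%, moved with the definition: 16.4% at 25 CpGs per kb, 8.75% at 40, 13.3% with no other peak within 1 kb, 16.8% as a mean of CpG levels, 11.9% at CpGs with at least 5 calls, and 10.99% as the median over peaks. The difference from CpG-poor peaks kept its direction under every alternative tried, from −11.4 points at CpGs with at least 5 calls to −31.3 as a mean of CpG levels and −41.6 as a difference of medians. The difference from CpG-dense peaks with H3K4me1 was −0.0596 points at CpGs with at least 5 calls and turned to 0.317 at 25 CpGs per kb; the cause was not tested. With 6 libraries, 7 of the 8 differences had the same direction in all 6, at −19.3, −0.923, 5.47, 11.8, 10.7, 4.93 and −1.51 points. The order is CpG-poor peaks, H3K4me1 overlap, gene start, density, edge, edge against H3K4me1 overlap, and start windows. Such agreement fixes the exact sign permutation p at 0.03125, the smallest that 6 libraries allow, and 4 libraries cannot go under 0.05. The labels name no separate cultures, so this p covers agreement between libraries only. Where classes were split by H3K4me1 overlap, H3K4me1 is also 1 of the 6. Peaks over 50% numbered 260 at 25 and 11 at 40 CpGs per kb, against 82. Of the 40 peaks called between 100000 and 250000 cells, 14 differed by at least 10 points. The H3K4me1 gap was −1.32 points over all CpGs and 2.07 against the 100000-cell library, and the H3K9me3 gap 6.42 and 6.96.

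Leaving out each H3K27me3 library in turn gave −16.2 to −15.8 points against CpG-poor peaks, −0.539 to −0.377 against those with H3K4me1, 3.03 to 5.08 for the share over 50%, 3.27 to 3.82 for the gene start, 10.3 to 10.9 for density, 12.4 to 13.8 and 5.70 to 6.85 for the edge, and −1.73 to −1.55 for start windows. Without run 1 or run 2 the gaps were 1.61 to 1.83 and 6.76 to 6.87. The comparisons from gene start to start windows, and the share over 50%, were added after the data were seen. Among the named peaks, counting each CpG equally moved the level outside its interval in 26 of 52, most at Ryr2. No paired analysis was possible because the H3K27me3 libraries carry no run number to pair with those of H3K4me1 and H3K9me3, which were not compared with each other; peak classes were compared within each library. Of the H3K27me3 libraries depth limits the 4000-cell one most, with 163 peaks of at least 20 calls; H3K9me3 run 1 had 58.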

Other observations

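Some highly methylated peaks lay inside genes of developmental regulators, away from any start entry. They were picked by gene role after their values were seen, so no count is drawn from them. The peak inside Axin2, a feedback inhibitor of Wnt signalling (chr11:108941874-108943138), had 67.7% of 96 calls at 100000 cells and 70.4% of 125 at 250000. The peak inside Wnt4, a Wnt ligand gene, had 65.4% of 78 and 59.3% of 162. Inside Zbtb20, a zinc finger repressor gene, it was 65.0% of 157 and 74.5% of 231. Inside Nfatc2, a calcium-responsive transcription factor gene (chr2:168569659-168572049), it was 58.9% of 275 and 65.1% of 427. Inside Bach2, a repressor in lymphocytes, it was 64.2% of 162 and 67.1% of 158. The same 2 libraries gave 59.3% and 64.2% inside Zfp536, a zinc finger gene. All of these levels were over 50% in both libraries, which describes the choice, since the values were known when the peaks were picked.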
